A study of Synthetic plasmid and Mus musculus with 4 samples.

Results

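B880 is a target site on mouse chromosome 17, and 28 of the 45670 constructs of a reporter library carry a genomic fragment that overlaps it. The 28 constructs were taken as all entries whose target is B880, and the site itself was chosen by its RNA counts in cerebral cortex, which were high relative to DNA. Its level in cortex is therefore given as a description with no test, while the position of activity within the site and the values in retina were not part of that choice. The target is a 300 bp window, chr17:73621306-73621605 (mm9). What the annotation places there was not looked up, since no mm9 genome or annotation was used here. At least 10 counts in every DNA library, the minimum for a value, were found for 22 of the 28 constructs in cortex and for 19 in retina.

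Enhancers are stretches of DNA that bind transcription factors and raise transcription of a linked promoter, often in 1 tissue and not in another. In a barcoded reporter assay each fragment is cloned beside a short tag that is transcribed, so the amount of tag in RNA relative to the same tag in DNA reports how strongly the fragment drives the reporter. When overlapping fragments tile a site, the stretch that all active fragments hold and inactive ones lack bounds the sequence needed for activity in that assay. The letter B marks 1 of 4 target classes. From knowledge of the study it is read as brain sites with open chromatin, although the tables used here give only the letter.

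The fragments were sonicated C57BL/6J DNA captured with RNA baits and cloned as 2 plasmid preparations. For retina, CD-1 mouse retinas were electroporated ex vivo at birth (P0) and kept in culture for 8 days, with 5 retinas in each of 3 replicates. For cortex, the library was packaged in adeno-associated virus (AAV) and injected stereotactically into CD-1 mice aged 4 to 6 weeks, and the GFP-positive tissue was dissected out 4 to 5 weeks later, with 1 animal in each of 3 replicates. Each replicate has 1 RNA and 1 DNA library, with 4000439 to 9674859 RNA and 3999412 to 10769648 DNA counts in cortex libraries and 7025820 to 10411511 RNA and 6501061 to 12147398 DNA counts in retina libraries. Tissue, delivery, age and sequencing lane changed together and cannot be told apart. Dissected cortex holds several cell types, and more cells with an active reporter cannot be told apart from more RNA per cell.

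The constructs were numbered 1 to 28 from left to right by start coordinate. All 28 fragments differ in position, 14 are on the plus strand and 14 on the minus strand, and together they span 1147 bp from 73620773 to 73621919. Their lengths run from 331 to 661 bp. Each has a barcode of its own, so no fragment was read through more than 1 barcode, and a difference between constructs includes any effect of the barcode. The 6 constructs on which the limits of the active sequence rest are shown with their barcodes, which are the sequences that were counted. They are written in lower case throughout because no part of a barcode is singled out.
Construct 8, chr17:73621024-73621462, minus strand: ttccaaccgagtggg
Construct 9, chr17:73621056-73621437, minus strand: ggaccccccccctgt
Construct 10, chr17:73621056-73621562, plus strand: ttctaccacacctta
Construct 14, chr17:73621087-73621484, plus strand: ccatctgggacttga
Construct 27, chr17:73621332-73621736, minus strand: gactattctggcact
Construct 28, chr17:73621393-73621919, plus strand: acacgatcaacgtgc

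In cortex B880 produced far more RNA than its DNA share. Its 22 constructs gave 2.28%, 1.81% and 2.28% of the RNA counts in replicates 1, 2 and 3, against 0.0590%, 0.0664% and 0.0679% of the DNA counts, both summed over the 38826 constructs that reach the DNA minimum in cortex. The RNA share was thus 38.7, 27.3 and 33.6 times the DNA share, or 33.2 ± 5.70 (SD, n = 3). Relative to the pooled constructs of the H and L classes, the RNA/DNA ratio was 48.7, 33.2 and 43.6 times theirs. The fitted log2 RNA/DNA of the region was 5.43 (SE 0.17), the second highest of 2108 regions. With the construct holding most RNA left out of every region it was 4.89 and still the second highest.

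Activity in cortex changed steeply with the position of a fragment, and mean log2 RNA/DNA ran from -3.60 to 6.87 over the 22 constructs. Constructs 9 and 14, whose right ends lie 47 bp apart, differed by a log2 of 5.66, though also in start and strand. A pair of scales is used for single constructs. The share ratio is a construct's share of the RNA counts divided by its share of the DNA counts, both among the constructs that reach the DNA minimum in that tissue, so that 1 means no excess. The log2 RNA/DNA is computed after the trimmed mean of M values scaling, with a prior count of 2 added to every count, and lies on average 0.43 above the log2 of the share ratio (0.25, 0.41 and 0.63 in replicates 1 to 3). On that scale the median of all 38826 constructs in cortex was -2.24 and the 99th percentile 2.88. The median of the 22 B880 constructs was 4.84, and 16 of them lay above that percentile. The edgeR quasi-likelihood fit called 15 of the 22 higher in RNA than in DNA at an adjusted p under 0.05, against 0.665% of all constructs. The choice of the site used this contrast, so the call only sorts the constructs and nothing is read from their share. At a minimum of 50 DNA counts 9 of 11 were called.

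Among the fragments that start at or before 73621332, those that end furthest to the left were the least active. Construct 3, which ends at 73621399 and holds 94 bases of the window, gave 0, 0 and 201 RNA counts against 112, 237 and 219 DNA counts. Its log2 RNA/DNA was -3.60 ± 3.33 (SD, n = 3), with RNA in 1 replicate of 3. Construct 9 ends at 73621437, 38 bp further to the right. It gave 124, 256 and 783 RNA counts against 241, 715 and 507 DNA counts, which are share ratios of 0.518, 0.733 and 1.29. This is close to no excess in every replicate, and its log2 was 0.09 ± 0.85. By that mean construct 9 still ranked 4979 of 38826 constructs, above their median of -2.24. Its barcode holds a run of 9 identical bases, against at most 5 in the other 27 barcodes; the part of this run in its value was not tested.

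Construct 6 ends at 73621448, with 214, 53 and 289 RNA counts against 34, 155 and 144 DNA counts. Its share ratios were 6.33, 0.700 and 1.68, and its log2 was 1.38 ± 1.46. Construct 2 ends at 73621455, with 162, 6 and 406 RNA counts against 19, 78 and 43 DNA counts. It stood at share ratios of 8.58, 0.157 and 7.91, and at a log2 of 1.63 ± 3.05. Both were low in replicate 2 and above 1 in the others, and neither was called. None of the 4 constructs that end at or before 73621455 was called, and their mean log2 was -0.12 ± 1.70 (SD, n = 3 replicates).

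A construct that ends only a few bases later was active. Construct 8 ends at 73621462, 25 bp to the right of construct 9 and on the same strand. It gave 2782, 1057 and 4332 RNA counts against 239, 487 and 394 DNA counts, with share ratios of 11.7, 4.44 and 9.21. All 3 replicates lay well above 1, and the log2 was 3.39 ± 0.72. Construct 8 exceeded construct 9 by a log2 of 3.30 ± 1.03, with a range of 2.59 to 4.48 over the replicates, although construct 8 also starts 32 bp earlier. Construct 2, on the plus strand, ends closer to construct 8, at 73621455. Construct 2 minus construct 8 was -0.56, -4.44 and -0.27 in replicates 1 to 3, a mean of -1.76 ± 2.32. Against construct 2 the step was thus large in replicate 2 only, where construct 2 had 6 RNA counts. Construct 7, which ends at 73621473, gave 485, 102 and 1269 RNA counts against 27, 80 and 22 DNA counts. Its log2 of 4.07 ± 2.17 was high but spread widely, with share ratios of 18.1, 2.61 and 48.3, and it was not called. Construct 4, ending at 73621480, gave 804, 1268 and 2601 RNA counts against 157, 628 and 397 DNA counts, with share ratios of 5.15, 4.13 and 5.49. Its log2 of 2.71 ± 0.33 was the lowest of the 15 called constructs. The 3 constructs that end between 73621462 and 73621480 had a mean log2 of 3.39 ± 1.05.

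Activity reached its full range in constructs that end at 73621484 or later. Construct 14 ends at 73621484 and holds 179 of the 300 window bases. It gave 2755, 2744 and 8482 RNA counts against 54, 224 and 135 DNA counts, with share ratios of 51.3, 25.1 and 52.6 and a log2 of 5.75 ± 0.65. It ends 22 bp beyond construct 8 and exceeded it by 2.36 ± 0.23, in a range of 2.09 to 2.50. It ends 47 bp beyond construct 9 and exceeded it by 5.66 ± 0.80. Construct 14 is in the opposite orientation to both, and starts 63 bp to the right of construct 8 and 31 bp to the right of construct 9. The 14 constructs that end at 73621484 or later and start at or before 73621332 had a mean log2 of 5.42 ± 0.09, and single constructs ranged from 4.10 to 6.87. All 14 means lay above those of the constructs that end at or before 73621480, though the closest, construct 23 at 4.10 and construct 7 at 4.07, did not differ beyond their spread. Starts shifted as well: constructs 4, 7 and 8 start at or before 73621024, and all of the 14 but construct 5, at 4.20, start at 73621056 or later. Over the 22 constructs log2 correlated with the start at a Pearson r of 0.42 (Spearman 0.55) and with the end at 0.28 (Spearman 0.51). The part of the start was not tested.

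Constructs 9 and 10 give a direct comparison at the right edge because both start at 73621056. Construct 10 extends 125 bp further, to 73621562. It gave 2683, 1760 and 4108 RNA counts against 14, 95 and 66 DNA counts, with share ratios of 193, 37.9 and 52.1 and a log2 of 6.52 ± 1.03. Construct 10 exceeded construct 9 by a log2 of 6.43 ± 1.66, with a range of 5.29 to 8.34. The 2 are cloned in opposite orientation.

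The left edge of the active sequence is set by the constructs furthest to the right. Construct 27 starts at 73621332, 26 bp inside the window, and ends at 73621736. It gave 49127, 51032 and 116574 RNA counts against 405, 1680 and 1117 DNA counts. No other construct in the whole library had as many RNA counts in any of the 3 cortex RNA libraries. Its share ratios were 122, 62.2 and 87.4, and its log2 of 6.87 ± 0.44 was the highest mean among the 38826 constructs. It gave 54.2% ± 0.48 of the RNA of B880 from 20.6% ± 3.25 of its DNA (SD, n = 3). The authors' deposited table also places it first, with a mean log2 of 6.45 on their scale.

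Construct 28 starts 61 bp further to the right, at 73621393, and holds 213 bases of the window. It gave 0, 13 and 51 RNA counts against 18, 77 and 45 DNA counts, with share ratios of 0, 0.346 and 0.949. All 3 replicates lay below 1, and the log2 was -1.16 ± 1.81. Construct 27 exceeded it by 8.03 ± 1.95, with a range of 6.53 to 10.2. Construct 28 is the only fragment that starts beyond 73621332, where construct 27 sets the left limit. Low activity past that limit therefore rests on 1 barcode with 140 DNA counts in all, and on a fragment in the opposite orientation to construct 27.

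The 15 called constructs share 131 bp, chr17:73621332-73621462. The start of construct 27 sets the left limit and the end of construct 8 the right limit. The interval begins 26 bp after the left edge of the window and ends at its position 157, leaving the last 143 bp of the window outside. It is defined as the overlap of the called constructs, so their holding it is not a finding. No called construct can lack it, so the values below of constructs with and without it are a description and no test of the interval. Of the 22 constructs with a value, 17 hold the whole interval and 5 do not. The 17 had a log2 between 2.71 and 6.87 with a median of 4.95, and the 5 lay between -3.60 and 1.63 with a median of 0.09. The means of the 2 groups did not overlap, but single replicates did: in replicate 1 the lowest of the 17 was at 2.60 and the highest of the 5 at 3.22, and in replicate 3 these values were 3.08 and 3.55. In replicate 2 they were 1.78 and -0.03, with no overlap. The 17 were all above 0 in every replicate, and none of the 5 was. By mean log2, 21 of the 22 lay above the median of all constructs, -2.24, and only construct 3 lay below it. Constructs 2 and 6, which lack the interval, ranked 1156 and 1456 of 38826. The 5 were thus lower than the 17 but not all at the typical level of the library.

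Constructs 5 and 7 hold the interval and were not called. Construct 5, ending at 73621517, gave 562, 282 and 1204 RNA counts against 32, 62 and 58 DNA counts, and construct 7 is described above. Their log2 values of 4.20 ± 0.56 and 4.07 ± 2.17 lay inside the range of the called constructs. They had 152 and 129 DNA counts over the 3 libraries, the median of the 22 constructs being 346.5.

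Activity was also compared by position without using the calls. The same construct values enter, so this is a second description and no independent evidence. The tiled span was divided into 20 bp bins, and the mean log2 of the constructs holding a bin was compared with that of the constructs holding none of it, where at least 3 constructs were on each side. The largest difference was in the bin from 73621453 to 73621472, where 17 constructs holding it averaged 4.79 and 3 without it averaged -0.71, a difference of 5.50 ± 1.14 (SD, n = 3). These 17 are not the 17 that hold the shared interval, as they include construct 28 and leave out construct 8. Constructs 2 and 8 hold only part of this bin and entered neither side, so the 3 without it are constructs 3, 6 and 9. The same bin was the largest in each replicate taken alone. The difference was 4.35 ± 1.42 in the next bin to the right, 3.05 ± 1.29 in the bin from 73621513, and 1.34 ± 0.92 in the bin from 73621593 at the right edge of the window. To the left the difference was negative, reaching -3.36 ± 1.31 in the bin from 73620973. Fragments that start far to the left also end far to the left, with a Pearson r of 0.83 between start and end over the 22 constructs, which share overlapping sequence. No bin from 73621293 to 73621452 could be compared, because fewer than 3 constructs lack any of these bins, so the bin with the largest difference is also the first to their right that could be compared. Nearly the whole shared interval is therefore bounded by its 2 ends and was not resolved inside.

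Constructs were also compared by whether they hold the whole window. The 7 constructs that hold all 300 bases had a log2 of 5.16 ± 0.26, and the 15 that hold part of it had 3.22 ± 0.87, a difference of 1.94 ± 1.05 in favour of the whole window. The difference was 1.67, 3.10 and 1.05 in replicates 1, 2 and 3 (exact sign-flip permutation test over replicates, two-sided, p = 0.25, adjusted p = 0.5 over 2 comparisons; 3 replicates cannot go below 0.25). Among 1612 targets with at least 3 constructs on each side the same difference had a median of 0.01, and its central 95% ran from -1.80 to 2.11. With summed counts in place of construct means the direction turned, to -0.48. Within the 17 constructs that hold the shared interval, which was itself defined from the calls, the difference was 0.16 ± 0.80 and changed sign between replicates. All 7 whole-window constructs and 8 of the 15 others were called. The most active construct, 27, holds 274 window bases and construct 28, near the bottom, holds 213.

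The difference between orientations depended on which constructs were compared. The 11 plus-strand constructs averaged a log2 of 3.97 ± 0.62 and the 11 minus-strand constructs 3.71 ± 0.50. Plus exceeded minus by 0.55 and 0.26 in replicates 1 and 3 and was lower by -0.04 in replicate 2, a mean of 0.26 ± 0.29 (exact sign-flip permutation test, two-sided, p = 0.5, adjusted p = 0.5). The central 95% of 1601 targets ran from -1.92 to 1.95 for this difference. Among the constructs that hold the shared interval, 8 plus-strand constructs had 5.22 ± 0.32 and 9 minus-strand constructs 4.92 ± 0.20. With summed counts in place of construct means the sign turned, to -0.28; construct 27, which gives 54.2% of the summed RNA, is on the minus strand. With at least 50 DNA counts, which leaves 11 constructs, plus exceeded minus by 2.57 in the mean, at 5.49 against 2.92. Called constructs numbered 7 on the plus and 8 on the minus strand.

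Constructs that hold the shared interval still differed among themselves by more than their replicate spread. The most active after construct 27 were construct 24 (chr17:73621297-73621727, minus strand) at 6.66 ± 0.98, construct 10 at 6.52 ± 1.03 and construct 22 (chr17:73621238-73621575, plus strand) at 6.19 ± 0.32. These ranked 2, 5 and 11 among all constructs in cortex. Construct 24 gave 3008, 3193 and 6662 RNA counts against 15, 152 and 98 DNA counts, with share ratios of 202, 43.0 and 56.9. Construct 22 gave 7633, 5057 and 10546 RNA counts against 95, 209 and 213 DNA counts, with share ratios of 80.8, 49.5 and 41.5. In each of the 4 constructs replicate 1 had the highest ratio and replicate 2 or 3 the lowest. In all, 12 of the 22 constructs were among the 100 highest of the library.

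The remaining called constructs filled the range between these and construct 4. Construct 21 (chr17:73621231-73621736, minus strand) gave 1512, 1834 and 1359 RNA counts against 49, 62 and 37 DNA counts, share ratios of 31.0, 60.5 and 30.8, and a log2 of 5.64 ± 0.58. Construct 19 (chr17:73621216-73621546, plus strand, the shortest fragment at 331 bp) had 5.29 ± 0.11, the smallest spread of any. Construct 18 (chr17:73621126-73621696, minus) had 5.08 ± 0.29, construct 15 (chr17:73621088-73621709, minus) 4.95 ± 0.47 and construct 16 (chr17:73621098-73621569, plus) 4.95 ± 0.57. Construct 20 (chr17:73621220-73621608, plus) had 4.89 ± 1.54 and construct 13 (chr17:73621074-73621655, minus) 4.79 ± 0.80. Construct 23 (chr17:73621282-73621804, plus) had 4.10 ± 0.63, the lowest of the called constructs ending at 73621484 or later, and of the called constructs it reaches furthest to the right. It gave 1538, 3487 and 1401 RNA counts against 91, 388 and 170 DNA counts.

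Near-identical fragments that both hold the interval differed from one another by small to moderate amounts. Constructs 24 and 27, on the same strand with a reciprocal overlap of 0.92, differed by 0.21 ± 0.67, less than the spread between replicates. Constructs 15 and 18, overlapping by the same share and also on the minus strand, differed by 0.13 ± 0.68. Constructs 10 and 16, both on the plus strand, differed by 1.57 ± 1.42. Constructs 4 and 5, with the highest reciprocal overlap of 0.93 and both on the minus strand, differed by 1.49 ± 0.31, construct 5 being higher in 3 of 3 replicates. Among the 15 same-strand pairs that hold the interval and overlap by at least 0.8, the difference had a median of 0.80 and a maximum of 2.45. Its median was 1.64 among the 10 such pairs on opposite strands. At overlaps of 0.5 to 0.8 the order was the other way, with medians of 1.23 for 38 same-strand and 0.88 for 49 opposite-strand pairs, as it was below 0.5, with 2.67 for 11 and 1.57 for 13. Differences were larger where 1 of a pair lacks the interval. Constructs 6 and 7, both on the plus strand with a reciprocal overlap of 0.925, differed by 2.69 ± 1.78, and construct 6 lacks it. Among all 18 same-strand pairs that overlap by at least 0.8, with or without the interval, the median was 0.95 and the maximum 6.31. Pairs share constructs, so these are descriptions. Within the 17 constructs, log2 RNA/DNA was related to the start coordinate with a Pearson r of 0.65 and to fragment length with an r of -0.39. The points share libraries and overlapping sequence, and the start coordinate and length are not independent. Replicate values of the 22 constructs correlated at 0.84 to 0.89. The replicate SD had a median of 0.58 in the 17 and 1.81 in the 5 less active constructs, which rest on fewer RNA counts.

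In retina the same constructs gave almost no RNA. The 19 constructs with enough DNA gave 11, 319 and 213 RNA counts in replicates 1 to 3 against 5251, 2267 and 5540 DNA counts, share ratios of 0.00355, 0.133 and 0.0404. Constructs of the R class took 94.2% ± 0.50 of retina RNA (SD, n = 3), which leaves low shares for all other classes. Relative to the H and L constructs the RNA/DNA ratio of B880 was 0.0549, 1.78 and 0.513, or 0.784 ± 0.90 (SD, n = 3). The replicates lay on both sides of 1, and their spread exceeded the mean. The region had a log2 RNA/DNA of -1.56 (SE 2.69, edgeR quasi-likelihood test, adjusted p = 0.763), close to the median region at -1.96, and 8.81% of regions were called higher. It did not pass, and simulated increases of 16-fold were called in only 24% of regions of this fit, so an increase of that size need not have been detectable. The simulation gave unchanged regions RNA in proportion to their DNA, unlike these retina libraries, so it sets no exact limit.

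No B880 construct was called higher in retina, by edgeR or by DESeq2, and none had an unadjusted p under 0.05 in that direction, while 2.33% of all constructs were called. In simulated counts of this fit none of the 1024-fold increases of single constructs was called. As real constructs were called, the simulation was stricter than the data. It cannot tell what increase of a B880 construct was detectable. Of the 19, 13 had no RNA count in any retina library, which is 68.4% against 70.3% of all B constructs. The other 6 had RNA in 1 or 2 libraries each and none in all 3. Construct 8 gave 0, 79 and 67 counts, construct 9 gave 0, 238 and 0, and construct 19 gave 0, 0 and 140. Construct 6 gave 11, 0 and 0, construct 18 gave 0, 0 and 6, and construct 2 gave 0, 2 and 0. Constructs 2, 6 and 9 lack the interval shared by the active constructs in cortex. The edgeR fit called 13 of the 19 lower in RNA than in DNA, all without RNA, next to 64.9% of all constructs called lower. None of the 13 was called lower with any 1 retina replicate left out. Those fits called only 0.0384%, 0.0323% and 0.0384% of all constructs lower, without replicates 1, 2 and 3, so the loss is not particular to B880.

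Construct 27 gave 0 RNA counts in retina from 2514 DNA counts. A floor of 3 counts over the 3 retina libraries allows an RNA/DNA ratio of up to 0.0196 times that of the H and L constructs, a limit that covers counting error only. No RNA in any retina library was the outcome for 64.3% of all constructs. The next constructs by activity in cortex, 10 and 22, also had no retina RNA count, from 302 and 269 retina DNA counts, and construct 24 did not reach the DNA minimum in retina. The template was present in both tissues: over the 28 constructs, log2 DNA counts in cortex and retina correlated with a Pearson r of 0.97, across constructs of 1 plasmid pool. DNA counts summed over 3 libraries had a median of 463 in the 19 constructs with a value in retina and 346.5 in the 22 with one in cortex, which are different sets.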

How the data were processed

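Barcodes were counted in RNA and DNA of 3 replicates each of retina and cortex. Per the file headers, the authors deposited raw counts of each construct's barcode and a construct table, identical for both plasmid preparations, that lists position, strand, window overlap and a plasmid read count. They also deposited the fraction of a library that each construct takes, the ratio of RNA to DNA fraction, and log2 values of that ratio with 0.001 added, as the headers and values show; ratios were recomputed from the counts within a relative difference of 1.8e-08. Tools listed in the submitters' processing notes, without roles, are Bowtie2 2.1.0, bedtools 2.22.1, SAMtools 0.1.19 and FastQC, and the build is mm9. Deposited starts count from 0 and are given counted from 1.

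RNA was fitted against DNA in R 4.3.3 with edgeR 4.0.16 (quasi-likelihood, robust, TMM scaling, Benjamini-Hochberg, threshold 0.05) over all constructs with at least 10 counts in each DNA library, and over regions summed from at least 5 such constructs. The replicate was a block, because RNA and DNA of a replicate come from the same tissue per the labels. Python 3.11.15, numpy 2.4.6, scipy 1.17.1 and pandas 2.3.3 were used for the rest. In simulated counts, cortex region increases of 16-fold were called in 94% and of 64-fold in 100%; in retina regions these shares were 24% and 84%. Among single constructs no simulated 64-fold increase was called in either tissue, and 1024-fold increases were called in 74% in cortex and 0% in retina. The real fits did call constructs, such as construct 4 in cortex at a fitted log2 of 2.72, and 2.33% of all constructs in retina. For single constructs the simulation, whose dispersion followed the mean alone, was thus stricter than the data and sets no detection limit. For retina regions the simulation left out the large RNA share of R constructs, so its shares are no exact limit there either. A construct that was not called may still be active. Fitted sizes ran high: where a log2 of 6 was simulated, the median fitted was 8.44 in retina regions and 6.53 in cortex regions.

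The constructs named with counts were the 6 most and 6 least active in cortex and those that limit the shared sequence; further ones with counts were picked with values known. The members and comparisons were chosen with earlier results of these data known. Barcode reads are not independent molecules, so floors cover counting error only. Alternatives were other scalings, DESeq2 1.42.0, other DNA minimums, no block, another prior count, summed counts and each replicate left out. Fragment sequences are not shown, as no mm9 genome was used here.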

Additional observations from a re-analysis of the deposited data

Results flagged for a closer look

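The RNA share of B880 was above its DNA share in every cortex replicate, by 27.3-fold at the lowest, and below it in every retina replicate, at 0.133 at the highest; a difference between the tissues was not tested, because the site was picked for its cortex values. Relative to the H and L constructs, 1 retina replicate lay above 1, at 1.78.

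Cortex RNA was also present for 4 constructs left out of the analysis for low DNA counts, and all 4 hold the 131 bp interval. Of all 6 constructs left out, 5 hold it, so this sharing is not a finding. Construct 26 (chr17:73621324-73621694) gave 3460 RNA counts from 79 DNA counts over the 3 libraries, or 43.8 RNA counts per DNA count. Construct 11 (chr17:73621062-73621587) gave 2379 from 53, or 44.9. Construct 25 (chr17:73621322-73621756) gave 550 from 15, or 36.7, and construct 12 (chr17:73621064-73621609) gave 232 from 22, or 10.5. These 2 were uneven between replicates. Construct 25 had 146, 0 and 404 RNA counts against 1, 8 and 6 DNA counts, and construct 12 had 200, 5 and 27 against 3, 2 and 17. Neither was called in the edgeR fit with no minimum DNA count. Over all constructs of the library there were 0.829 RNA counts per DNA count in cortex, and the 17 analysed constructs with the interval ranged from 3.95 to 67.7. The other 2 constructs left out were construct 1, which ends at 73621433 and had 0 RNA from 1 DNA count, and construct 17, which had no counts at all.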

How the results depend on the processing

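The 131 bp interval had the same limits, 73621332 and 73621462, in all 10 fits, which called 9 to 17 constructs. These checks were added after the data were seen. The limits are the start of construct 27 and the end of construct 8, and all fits use the same counts. Their repeat is therefore no independent evidence on where the active sequence lies. The count of 15 called in cortex was 9 of 11 tested at a minimum of 50 DNA counts, where fewer constructs were tested, and 12 to 16 with 1 replicate left out. The region's cortex log2 of 5.43 became 5.05 with total library size and 4.89 without each region's top construct, and 5.31 to 5.59 with 1 replicate left out. No replicate block gave 5.44 in cortex and -0.81 in retina (edgeR adjusted p = 0.85), with 17 constructs called in cortex and every direction kept. The retina value stayed below 0 in every setting, and its adjusted p did not pass the threshold in any of them. The value lay between -0.34 and -2.83 with 1 replicate left out, and at -5.10 with total library size (edgeR adjusted p = 0.0585). The lowest and highest adjusted p over all settings were both from edgeR, at 0.0585 and 0.949. The bin with the largest difference started at 73621473 with at least 50 DNA counts, and at 73621453 otherwise. The strand difference was -0.28 with summed counts, 2.57 with at least 50 DNA counts, 0.57 without construct 27, and 0.11 to 0.41 with 1 replicate left out. The whole-window difference was -0.48 with summed counts and 1.36 to 2.38 with 1 replicate left out. Depth limits what is known to the right of the left edge, where the only fragment is construct 28 with 140 DNA counts.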
